A study of Mus musculus with 12 samples.

Results

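Brain endothelium and blood-brain barrier genes were followed across 12 arrays of mouse glioblastoma tissue. The rule named 39 genes and took, for each, the brightest probe set that the array annotation gives to that gene alone. It found 38 of them among 22180 genes; Ly6a was not analysed here. The tumours grew from GL261, a mouse glioma cell line, implanted in the brains of male C57BL/6 mice aged 8 weeks and taken on day 16. The 4 groups of 3 arrays were Control, TMZ (temozolomide, an alkylating agent, 30 mg/kg into the peritoneum), Anti-PD-1 (an antibody against PD-1, an inhibitory receptor of T cells, given intravenously 2 times a week at 10 mg/kg) and Combination (both agents). All groups carried the same implanted line, and the labels give neither the dosing days nor what Control animals received. They also do not say that each array came from its own animal, so p values measure the spread between arrays, which may be technical.

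Endothelial cells line the blood vessels. In the brain they form a barrier: claudin-5, occludin and ZO-1 seal the gaps between cells, few vesicles cross them, and transporters let chosen nutrients in and pump drugs out. Wnt signals from neural cells through beta-catenin and Lef1, together with the factors Erg, Sox17 and Sox18, keep this state, whereas VEGF and Angpt2 loosen vessels and Plvap marks leaky ones. When inflamed, endothelium displays Icam1, Vcam1 and the selectins, which catch leukocytes from the blood.

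No member passed the test in any treatment. With limma, fitted over all genes with Benjamini-Hochberg adjustment at 0.05, 0 of 38 members were called after TMZ (0.0992% of all genes were, 0.018% higher and 0.0812% lower), 0 after Anti-PD-1 (0.293%, with 0.0812% higher and 0.212% lower) and 0 after Combination (0%), each against Control. At an unadjusted p under 0.05 there were 7 members after TMZ, all higher (18.4%, against 5.47% of all genes higher and 5.78% lower). Without TMZ replicate 2, described further on, there were 2 higher, Slco1a4 and Flt1, and 1 lower, Aplnr. That fit has 2 TMZ arrays, so a member could also leave the count through lower precision. Tie1 left it at a difference of 0.29, beside 0.28 with all arrays. There were 5 after Anti-PD-1, 3 higher and 2 lower (13.2%, against 6.7% of all genes higher, 6.79% lower and 13.5% in either direction), and 4 after Combination, 3 higher and 1 lower (10.5%, against 5.43% higher, 6.18% lower and 11.6% in either direction). TMZ replicate 2 enters these comparisons only through the estimate of spread. Without it they had 4 higher and 1 lower, and 7 higher and 1 lower. At this unadjusted threshold, shares over all genes were not computed without that array. The counts without it, here and further on, therefore have no share to be read against. The median log2 difference of the members was 0.14 after TMZ, 0.03 after Anti-PD-1 and 0.04 after Combination, beside 0.0061, 0.0078 and 0.0005 over all genes. Members were higher than Control in 28, 23 and 23 of 38 cases (73.7%, 60.5% and 60.5%, against 52.1%, 52.4% and 50.2% of all genes). With array medians subtracted these counts were 30, 27 and 30. The medians over all genes then rose too, to 0.0254, 0.0339 and 0.024. The 3 comparisons share their Control arrays. In such bulk tissue, a change in the number of endothelial cells and a change in RNA per cell cannot be told apart.

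**Figure D1:**
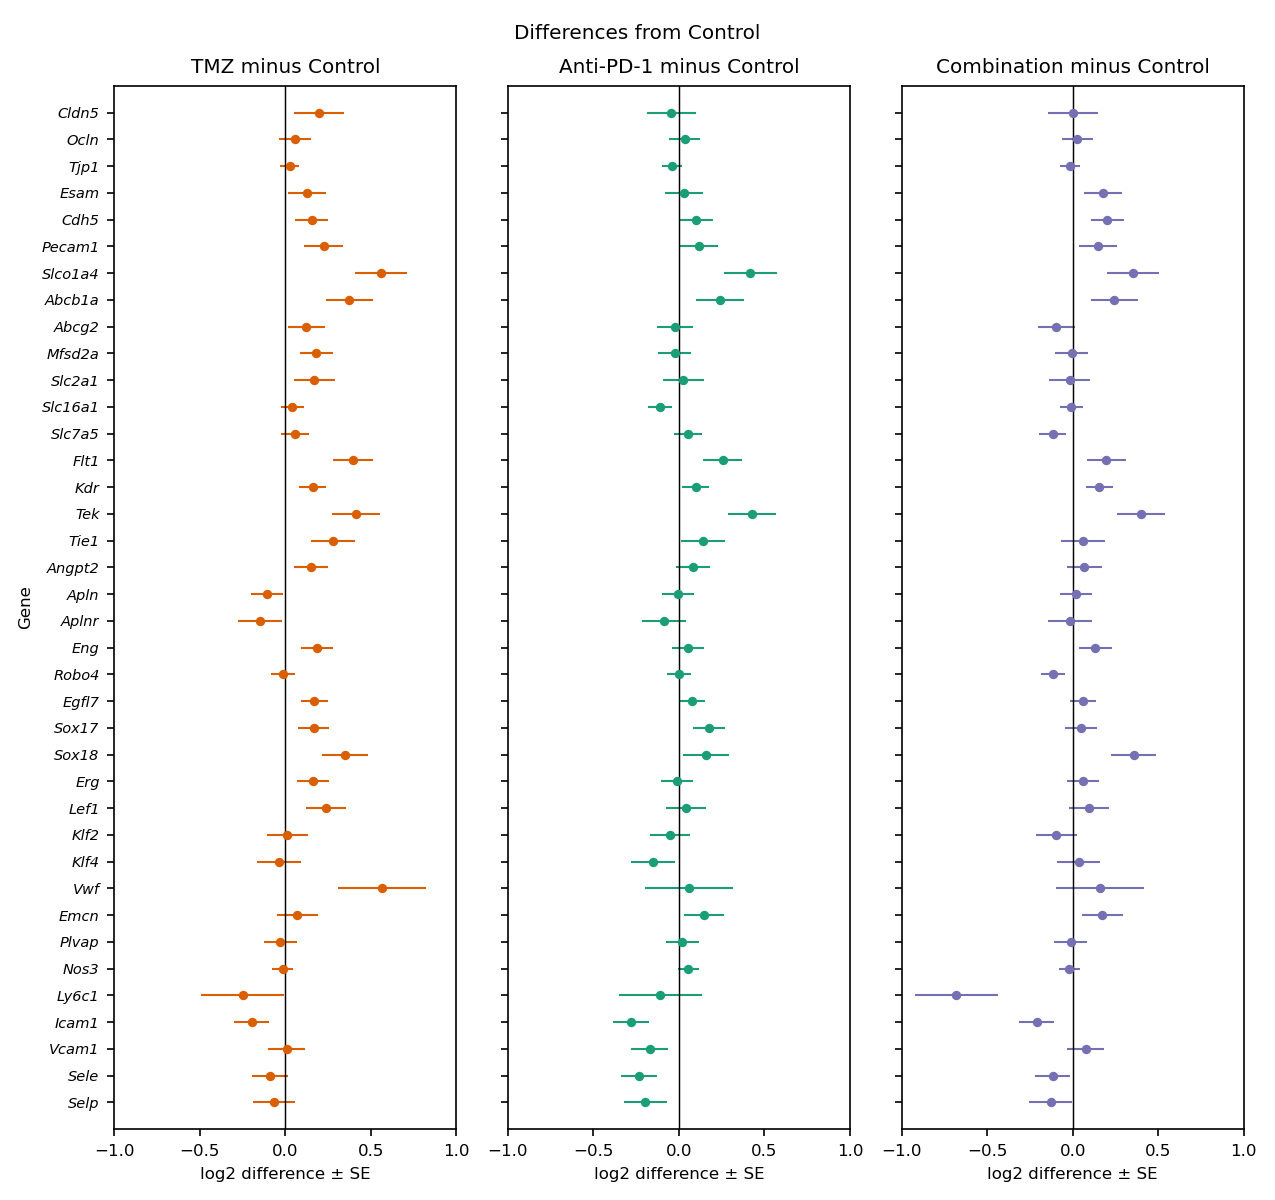
Log2 difference from Control with its standard error (x axis) for the 38 genes (y axis) after TMZ, Anti-PD-1 and Combination, 3 arrays per group. Most points lie near 0, and 0 of 38 passed the adjusted threshold in any panel.

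The precision sets what these counts can show. Standard errors of the differences ran from 0.0574 to 0.256 log2, with a median of 0.108. The 95% interval lay wholly between -0.5 and 0.5 log2, a 1.41-fold change either way, for 29 members after TMZ, 31 after Anti-PD-1 and 32 after Combination. For the rest a change of that size was not excluded by the interval, and the number of arrays, 3 per group, limits the precision.

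One array stood apart in these genes. TMZ replicate 2 gave the highest value of the 12 arrays in 22 of 38 members (57.9%), whereas it was the highest in 8.97% of all genes. It was highest in 5 of 6 junction genes, 6 of 7 transporters and 5 of 6 transcription factors. It was highest in 3 of 10 genes of growth factor signalling, 2 of 5 surface, granule and luminal products and 1 of 4 leukocyte adhesion genes. The mean over members of the log2 value minus each gene's own mean was 0.24 on this array, and between -0.10 and 0.03 on the other arrays. Of the members, Vwf was furthest out, at 1.29 log2 above the mean of the other 11 arrays, followed by Slco1a4 at 0.63, Abcb1a at 0.60 and Cldn5 at 0.54. Without it the median TMZ difference was 0.04, with 24 of 38 members higher, and values without it are given where they differ by over 1.5 times or in sign.

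Of 11 listed blood markers 5 were measured, and Ppbp and Slc4a1 were high on the same array. Ppbp, a platelet chemokine gene, was at 5.39 there and at most 4.47 elsewhere, and Slc4a1, the anion exchanger of red cells, was at 5.97 against at most 4.93. Pf4, another platelet gene, was at 4.21, inside its range on the other arrays, and Itga2b and Gp9 also lay within theirs. The score of the 5 blood markers was 0.46 on this array and between -0.18 and 0.07 on the others. The score of 27 other endothelial genes was 0.18 on it, against -0.07 to 0.02 elsewhere. The part of blood or vessel content in the TMZ values was not tested.

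**Figure D2:**
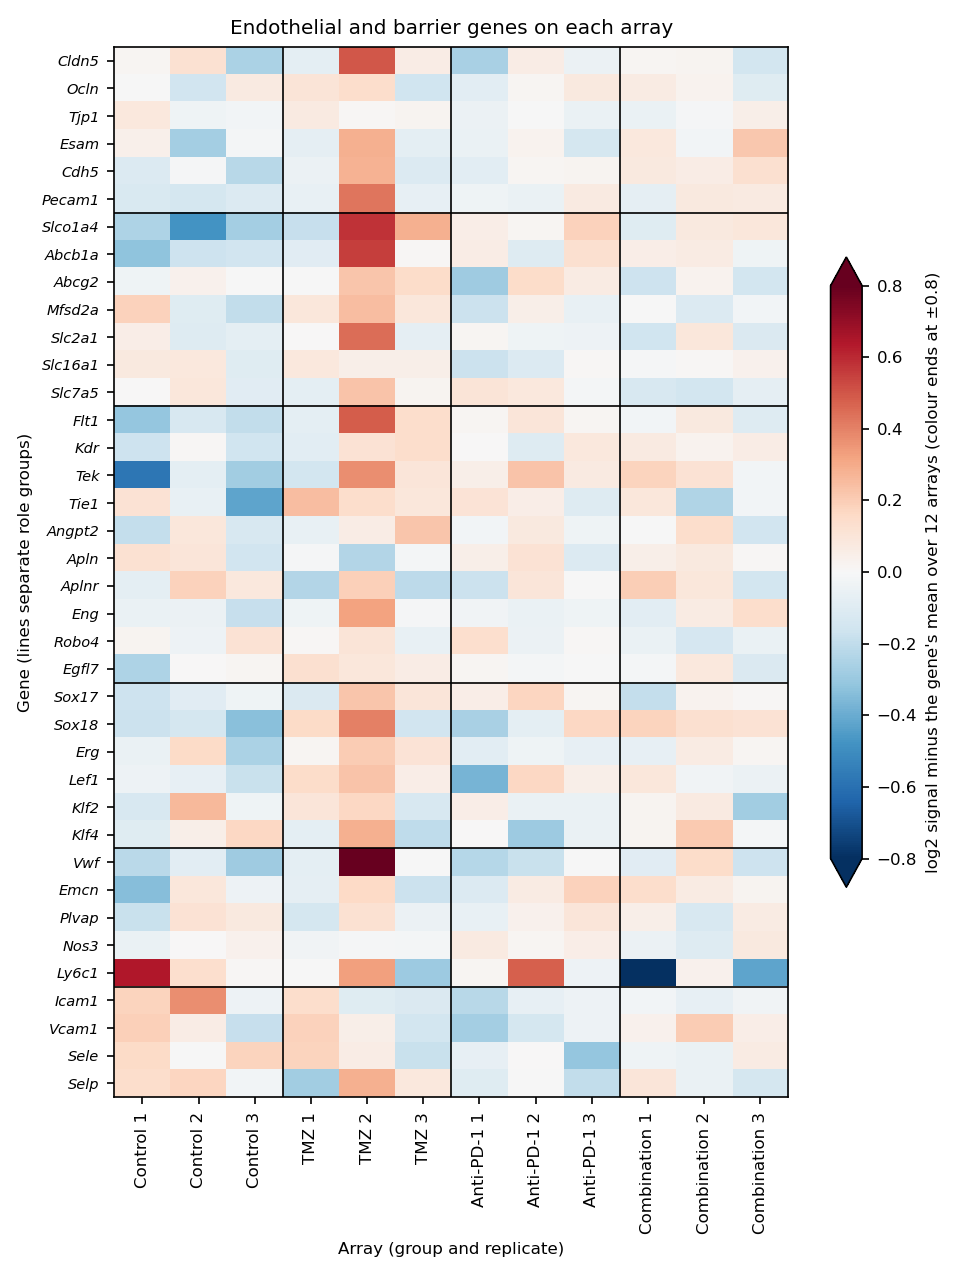
Log2 signal of each of the 38 genes (rows, in their role groups) on each array (columns) minus the gene's mean over 12 arrays; red is higher and blue is lower. The column of TMZ replicate 2 is red in most rows, and for Vwf its value lies beyond the end of the colour scale.

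Among genes of the junctions, none stood out. Cldn5 encodes claudin-5, the main sealing protein of the brain's vessels. It was at 6.53, 6.63 and 6.26 in Control, 6.43, 7.01 and 6.57 in TMZ, 6.25, 6.57 and 6.47 in Anti-PD-1 and 6.53, 6.53 and 6.37 in Combination. The groups overlapped, and apart from TMZ replicate 2 all arrays lay within the Control range or within 0.01 log2 of it. The differences from Control were 0.20 ± 0.15 (SE; 95% interval -0.12 to 0.52), -0.04 (-0.36 to 0.27) and 0.00 (-0.32 to 0.32), and the TMZ value was 0.03 without replicate 2.

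Pecam1, the CD31 adhesion protein, had a narrow Control range, with 6.89, 6.87 and 6.90. Its values were 6.95, 7.44 and 6.94 in TMZ, 6.97, 6.96 and 7.08 in Anti-PD-1 and 6.94, 7.09 and 7.08 in Combination. All 9 treated arrays lay above the 3 Control arrays, yet the differences of 0.22 ± 0.11, 0.12 and 0.15 had limma adjusted p of 0.49, 0.698 and 0.656. Without TMZ replicate 2 the first was 0.06.

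Cdh5, the VE-cadherin of endothelial contacts, was at 7.39, 7.49 and 7.28 in Control and at 7.58, 7.56 and 7.63 in Combination, which did not overlap (0.20 ± 0.10, adjusted p = 0.445). In TMZ it was at 7.45, 7.78 and 7.39, and in Anti-PD-1 at 7.42, 7.52 and 7.52, both overlapping Control. Esam, an adhesion molecule of the same contacts, Ocln (occludin) and Tjp1, which encodes the scaffold ZO-1, differed from Control by -0.04 to 0.18 log2. The TMZ differences of Cdh5, Esam and Ocln were 0.03, 0.01 and 0.00 without TMZ replicate 2. Tjp1 had the tightest estimate of the members, at 0.03 ± 0.06 after TMZ (95% interval -0.10 to 0.15).

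Barrier transporters held the member with the smallest p after TMZ. Slco1a4, an organic anion transporter of the vessel wall, was at 7.41, 7.19 and 7.39 in Control and at 7.48, 8.24 and 7.95 in TMZ. It was at 7.72, 7.68 and 7.85 in Anti-PD-1 and at 7.56, 7.74 and 7.75 in Combination. Every treated array lay above every Control array, the closest being TMZ replicate 1. The log2 differences were 0.56 ± 0.15 after TMZ (1.47-fold, adjusted p = 0.215), 0.42 ± 0.15 after Anti-PD-1 (adjusted p = 0.258) and 0.35 ± 0.15 after Combination (adjusted p = 0.408). Without TMZ replicate 2 the first was 0.38 ± 0.13.

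Abcb1a, the drug efflux pump P-glycoprotein, was at 7.04, 7.20 and 7.22 in Control. It was at 7.28, 7.92 and 7.38 in TMZ, 7.43, 7.26 and 7.49 in Anti-PD-1 and 7.42, 7.44 and 7.34 in Combination. All treated arrays were again above Control, with Anti-PD-1 replicate 2 and TMZ replicate 1 nearest to it. The differences of 0.37 ± 0.14, 0.24 ± 0.14 and 0.24 ± 0.14 missed the threshold (adjusted p of 0.344, 0.477 and 0.528), and the TMZ value was 0.18 ± 0.09 without replicate 2. Abcg2, the breast cancer resistance pump, was at 5.82, 5.88 and 5.85 in Control, 5.85, 6.07 and 5.995 in TMZ, 5.56, 5.996 and 5.91 in Anti-PD-1 and 5.68, 5.88 and 5.70 in Combination, and all treated groups overlapped Control. Its TMZ difference of 0.12 was 0.07 without replicate 2.

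Of the nutrient carriers, Slc2a1 encodes GLUT1, which brings glucose across the barrier. It was at 9.47, 9.32 and 9.34 in Control, 9.42, 9.87 and 9.35 in TMZ, 9.44, 9.39 and 9.39 in Anti-PD-1 and 9.27, 9.51 and 9.31 in Combination. TMZ replicate 2 alone was clearly outside Control: the TMZ difference of 0.17 ± 0.12 was 0.01 without it. A second, dimmer probe set of this gene was at -0.02 ± 0.07 after TMZ, -0.10 ± 0.07 after Anti-PD-1 and -0.17 ± 0.07 after Combination, where the probe set used was at 0.02 and -0.02 in the latter 2 comparisons.

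Mfsd2a, which carries docosahexaenoic acid as a lysolipid and keeps vesicle traffic low, was at 8.21, 7.93 and 7.83 in Control and at 8.12, 8.27 and 8.12 in TMZ. It was at 7.86, 8.07 and 7.97 in Anti-PD-1 and at 8.03, 7.92 and 8.01 in Combination. TMZ arrays lay above all Anti-PD-1 and Combination arrays but overlapped Control (0.18 ± 0.10, adjusted p = 0.52). The other carriers, Slc16a1 for lactate and Slc7a5 for large neutral amino acids, were 0.04 and 0.06 higher after TMZ, at -0.11 and 0.06 after Anti-PD-1 and at -0.01 and -0.12 after Combination. As a group all 7 transporters were above Control after TMZ, 4 of 7 after Anti-PD-1 and 2 of 7 after Combination, with 0 called. Without TMZ replicate 2 the TMZ count was 6 of 7, with Slc7a5 at -0.03.

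**Figure D3:**
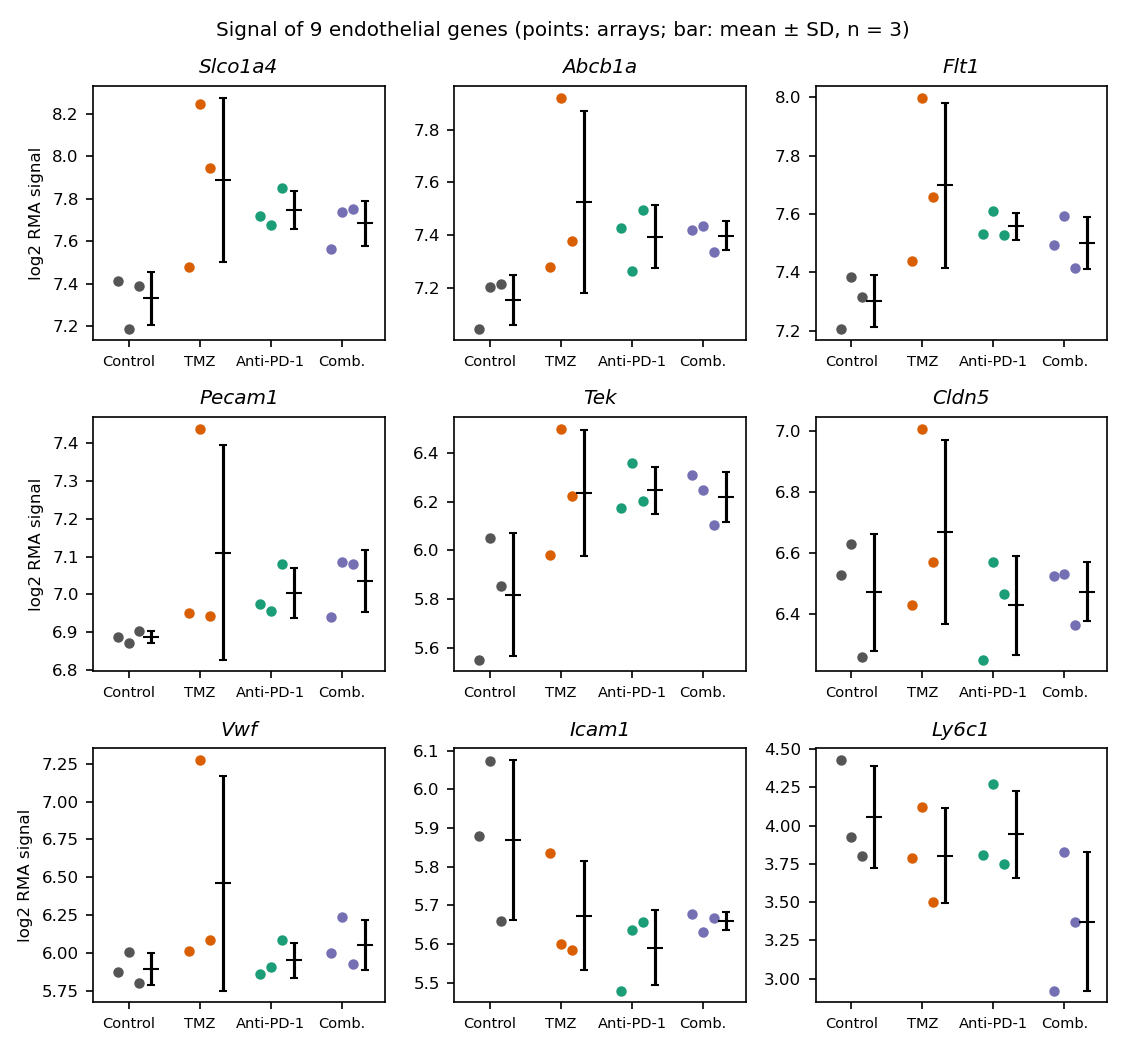
Log2 RMA signal (y axis) of 9 endothelial genes on each array by group (x axis), with the mean and SD of 3 arrays beside the points. In Slco1a4, Abcb1a, Flt1 and Pecam1 all 9 treated arrays lie above Control. In Abcb1a, Pecam1, Cldn5 and Vwf, TMZ replicate 2 is far above the other TMZ arrays.

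Upstream DNA of members that did and did not separate from Control is shown to let the results be read beside the sequence. The bases come from RefSeq (GRCm38.p6, 5′ to 3′ on the gene's strand), end just before the first annotated base of the gene, and overlap no other listed gene. Slco1a4 lay above Control in every treated group, Cldn5 overlapped it in every group, and Icam1, described further on, was below it in all 3 treated means. Capitals mark matches on either strand to the motifs searched: CAGGAA or CCGGAA for ETS factors such as Erg, AACAAT for SOX factors, ATCAAAG for TCF and LEF factors, and GGAATTTCC for NF-kB. No 2 of the matches shown overlap.
Slco1a4 (186 bases, chr6:141856285-141856470, minus strand): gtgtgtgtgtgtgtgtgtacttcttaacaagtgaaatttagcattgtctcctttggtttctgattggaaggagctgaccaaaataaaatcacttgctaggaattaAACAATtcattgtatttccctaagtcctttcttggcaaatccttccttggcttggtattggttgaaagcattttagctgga
Cldn5 (250 bases, chr16:18776597-18776846, plus strand): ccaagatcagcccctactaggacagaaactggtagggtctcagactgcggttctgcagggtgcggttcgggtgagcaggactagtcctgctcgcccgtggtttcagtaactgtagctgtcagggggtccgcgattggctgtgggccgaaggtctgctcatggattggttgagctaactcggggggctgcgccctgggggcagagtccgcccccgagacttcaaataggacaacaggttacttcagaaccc
Icam1 (250 bases, chr9:21015690-21015939, plus strand): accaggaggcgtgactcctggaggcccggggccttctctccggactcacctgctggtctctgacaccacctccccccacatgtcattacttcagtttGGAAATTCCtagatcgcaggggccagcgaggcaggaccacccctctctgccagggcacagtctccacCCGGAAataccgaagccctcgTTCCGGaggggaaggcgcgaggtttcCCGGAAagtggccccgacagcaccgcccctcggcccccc

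The Slco1a4 window held 1 SOX match, the Cldn5 window held no match to these letters, and the Icam1 window held 3 ETS matches and 1 NF-kB match, the latter 145 to 153 bases before the gene. Over the 250 bases before each start, 26 members had a window. The counts that follow kept all 250 bases, so for Slco1a4 they also took in bases inside the annotated gene. Members were counted by gene and the background by window. ETS letters were in 13 of the 26, against 35.1% of 32851 windows of all genes. SOX letters were in 4 (9.42%), TCF and LEF letters in 2, Egfl7 and Selp (3.21%), and NF-kB letters in 1, Icam1 (0.286%). These matches are descriptions of letters, not of binding.

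Among receptors of vessel growth, Flt1 encodes VEGFR1, a receptor that also traps VEGF; it was at 7.21, 7.38 and 7.32 in Control, 7.44, 8.00 and 7.66 in TMZ, 7.53, 7.61 and 7.53 in Anti-PD-1 and 7.49, 7.59 and 7.41 in Combination. All treated arrays lay above Control, Combination replicate 3 most narrowly. The differences were 0.40 ± 0.12 (adjusted p = 0.24), 0.25 ± 0.12 (0.369) and 0.20 ± 0.12 (0.545), and the TMZ value was 0.25 ± 0.09 without replicate 2.

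Tek encodes TIE2, the angiopoietin receptor, and had the smallest p of the members after Anti-PD-1 and after Combination. It was at 5.55, 6.05 and 5.85 in Control, 5.98, 6.50 and 6.22 in TMZ, 6.18, 6.36 and 6.20 in Anti-PD-1 and 6.31, 6.25 and 6.11 in Combination. Control replicate 1 was the lowest array and TMZ replicate 1 fell within the Control range, while Anti-PD-1 and Combination lay wholly above it. The differences were alike, at 0.42, 0.43 and 0.40 (SE 0.14 each), with limma adjusted p of 0.301, 0.209 and 0.32. Without Control replicate 1 they were 0.28, 0.29 and 0.27.

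Taking all 9 treated arrays against the 3 Control arrays, 4 members lay wholly above Control (10.5%, against 2.38% of all genes) and 0 wholly below (1.87% of all genes). The 4 were Slco1a4, Abcb1a, Flt1 and Pecam1. By single comparison 8 members lay wholly above Control after TMZ (8.19% of all genes did), 6 after Anti-PD-1 (10.3%) and 8 after Combination (8.98%). Those wholly below were 0 after TMZ (6.81%), 1 after Anti-PD-1, Icam1 (8.33%), and 1 after Combination, Robo4 (7.82%).

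Kdr, which encodes VEGFR2, the main VEGF signalling receptor, was 0.16 ± 0.08, 0.10 and 0.16 above Control, and Tie1, a partner of TIE2, was 0.28 ± 0.13, 0.14 and 0.06 above it. Eng, a TGF-beta co-receptor, and Egfl7, a secreted endothelial factor, lay wholly above Control after TMZ, at 0.19 ± 0.09 and 0.17 ± 0.08, with an adjusted p of 0.49 and 0.447. Eng was at 0.07 and Egfl7 at 0.17 without TMZ replicate 2. Angpt2, the ligand that opposes TIE2 signalling, was among the dimmer members, at 3.77, 4.05 and 3.83 in Control, 3.90, 4.02 and 4.18 in TMZ, 3.94, 4.04 and 3.93 in Anti-PD-1 and 3.96, 4.10 and 3.80 in Combination, overlapping throughout. The peptide Apln and its receptor Aplnr were at -0.11 and -0.15 after TMZ, and Robo4, a guidance receptor that steadies vessels, at -0.01; without TMZ replicate 2 they were at -0.03, -0.29 and -0.05. Robo4 was at 5.81, 5.75 and 5.91 in Control, 5.81, 5.90 and 5.73 in TMZ, 5.93, 5.75 and 5.81 in Anti-PD-1 and 5.74, 5.66 and 5.74 in Combination. The Combination difference was -0.11 ± 0.07 with an adjusted p of 0.573, and it was -0.07 without Control replicate 3.

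The transcription factors also remained below the threshold. Sox18, a SOX factor of vessel development, was at 5.50, 5.53 and 5.34 in Control and 5.82, 6.07 and 5.52 in TMZ. It was at 5.41, 5.59 and 5.84 in Anti-PD-1 and 5.85, 5.79 and 5.79 in Combination. Combination lay wholly above Control, and both other groups overlapped it. The differences were 0.35 ± 0.13 after TMZ (adjusted p = 0.362), 0.16 after Anti-PD-1 and 0.36 ± 0.13 after Combination (adjusted p = 0.347), and the TMZ value was 0.21 without replicate 2. Its relative Sox17 was at 0.17, 0.18 and 0.05, Erg, an ETS factor of endothelial identity, at 0.16, -0.01 and 0.06, and Lef1, the Wnt effector, at 0.24, 0.04 and 0.10. Klf2 and Klf4, which respond to blood flow, were between -0.15 and 0.04 from Control in each treatment. Without TMZ replicate 2 the TMZ differences were 0.09 for Sox17, -0.05 for Klf2 and -0.18 for Klf4.

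Of surface and luminal products, Vwf moved with a single array. Vwf encodes von Willebrand factor, which endothelial cells and platelets store in granules. It was at 5.88, 6.01 and 5.80 in Control, 6.02, 7.28 and 6.09 in TMZ, 5.87, 5.91 and 6.09 in Anti-PD-1 and 6.00, 6.24 and 5.93 in Combination. TMZ replicate 2 was far above the next highest array, Combination replicate 2. The TMZ mean was 6.46 ± 0.71 (SD, n = 3), with a difference of 0.56 ± 0.26 (adjusted p = 0.441) that was 0.16 ± 0.11 without that array. Plvap, the diaphragm protein of leaky vessels, was at 5.41, 5.70 and 5.66 in Control, 5.45, 5.71 and 5.54 in TMZ, 5.53, 5.62 and 5.69 in Anti-PD-1 and 5.64, 5.46 and 5.65 in Combination. Its groups overlapped fully, and the differences of -0.03, 0.02 and -0.01 had 95% intervals within -0.24 and 0.23. Emcn, a surface sialomucin, and Nos3, the endothelial nitric oxide synthase, were at 0.07 and -0.01 after TMZ. Emcn was at -0.02 and Plvap at -0.10 when TMZ replicate 2 was left out.

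Ly6c1, a surface protein of brain endothelium, had the most negative difference from Control of the 38 members, after Combination. With a mean of 3.79 over 12 arrays (percentile 18.9 of all genes) it was also the dimmest member. Ly6c1 was among those removed when the dimmer genes were left out. It was at 4.43, 3.93 and 3.80 in Control, 3.79, 4.12 and 3.50 in TMZ, 3.81, 4.27 and 3.75 in Anti-PD-1 and 2.92, 3.83 and 3.37 in Combination. Combination held the 2 lowest arrays of the 12, and its highest array overlapped every other group. The differences from Control were -0.25 ± 0.24, -0.11 ± 0.24 and -0.68 ± 0.24 (adjusted p = 0.326 for the last), and Combination was also at -0.57 ± 0.24 against Anti-PD-1 (unadjusted p = 0.0371, adjusted p = 1). Leaving out Combination replicate 1 gave -0.46 against Control and -0.35 against Anti-PD-1. The TMZ difference was -0.41 without TMZ replicate 2. Ly6c1 is nearly identical to Ly6c2, a monocyte gene, and cross-hybridisation between them was not tested. Ly6c2 was at -0.70 ± 0.32, -0.998 ± 0.316 and -0.63 ± 0.32 in the same comparisons.

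Leukocyte adhesion genes lay on the other side of Control from most members. After Anti-PD-1 all 4 were lower, with a median of -0.21, and 0 were called; 3 of 4 were lower after TMZ (4 of 4 without TMZ replicate 2) and 3 of 4 after Combination. Icam1, the ligand of the leukocyte integrin LFA-1, was at 5.88, 6.07 and 5.66 in Control, 5.84, 5.60 and 5.58 in TMZ, 5.48, 5.64 and 5.66 in Anti-PD-1 and 5.68, 5.63 and 5.67 in Combination. Anti-PD-1 lay wholly below Control by a narrow margin, since Control replicate 3 was close to the treated arrays. The differences were -0.20 ± 0.10, -0.28 ± 0.10 and -0.21 ± 0.10, with limma adjusted p of 0.504, 0.26 and 0.465. With the neuron marker score as a covariate the Anti-PD-1 value was -0.06 ± 0.13. Without Control replicate 2, the highest array, the differences were -0.10, -0.18 and -0.11, and without Control replicate 3 the TMZ and Combination values were -0.30 and -0.32.

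Sele, the E-selectin that slows leukocytes on inflamed vessels, was at 4.25, 4.09 and 4.27 in Control, 4.27, 4.15 and 3.92 in TMZ, 4.03, 4.10 and 3.78 in Anti-PD-1 and 4.06, 4.04 and 4.16 in Combination. Anti-PD-1 overlapped Control by the smallest step, and its difference was -0.23 ± 0.10 (adjusted p = 0.357). Without Anti-PD-1 replicate 3, the lowest array, it was -0.14. Selp, the P-selectin of endothelium and platelets, was at 4.85, 4.88 and 4.69 in Control, 4.43, 4.995 and 4.79 in TMZ, 4.61, 4.71 and 4.51 in Anti-PD-1 and 4.81, 4.65 and 4.57 in Combination, and each treated group overlapped Control. Its TMZ difference of -0.07 was -0.19 without TMZ replicate 2.

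Vcam1, the ligand of the integrin VLA-4, was at 7.47, 7.34 and 7.10 in Control and 7.47, 7.33 and 7.14 in TMZ. It was at 7.01, 7.15 and 7.24 in Anti-PD-1 and 7.32, 7.49 and 7.34 in Combination. Combination lay wholly above Anti-PD-1 (0.25 ± 0.11, unadjusted p = 0.0439, adjusted p = 1) and overlapped Control. Beside these genes, the score of 17 interferon-stimulated genes was 0.76 ± 0.58 (SD, n = 3) in Control and -0.18 ± 0.31 in TMZ. It was -0.62 ± 0.29 in Anti-PD-1 and 0.03 ± 0.15 in Combination. By array this score was 0.94, 1.23 and 0.11 in Control and 0.16, -0.46 and -0.23 in TMZ. Control replicate 3 thus lay below TMZ replicate 1 and below Combination replicate 3, at 0.14. The score of 15 microglia and macrophage markers was 0.26 and 0.28 in Control replicates 1 and 2, and -0.00 in replicate 3. Icam1 and Vcam1 are also made by such cells, and the part of these cells or of interferon signals in the adhesion genes was not tested.

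The agents were then compared with each other. Among the 38 members limma called 0 between Combination and TMZ (0% of all genes were called), 0 between Combination and Anti-PD-1 (0%) and 0 between TMZ and Anti-PD-1 (0%). At an unadjusted p under 0.05 these counts were 0 (against 4.19% of all genes, 1.76% higher and 2.43% lower), 2, with 1 higher and 1 lower (5.26%, against 4.91% of all genes, 2.01% higher and 2.9% lower), and 1, Slc16a1, higher in TMZ (2.63%, against 4.51%, with 2.11% higher and 2.39% lower). The members nearest the threshold between Combination and TMZ were Slc7a5 (-0.17 ± 0.08), Abcg2 (-0.22 ± 0.11), Mfsd2a (-0.19 ± 0.10) and Ly6c1 (-0.43 ± 0.24), with an adjusted p of 1 each. Slc7a5 was at -0.09 without TMZ replicate 2, and Ly6c1 at -0.27. Ly6c1 was at -0.21 without Combination replicate 1 and -0.66 without Combination replicate 2. Slc7a5 was at 8.61, 8.70 and 8.51 in Control, 8.53, 8.83 and 8.63 in TMZ, 8.71, 8.69 and 8.59 in Anti-PD-1 and 8.48, 8.46 and 8.53 in Combination. Combination lay wholly below Anti-PD-1 in this gene and overlapped TMZ narrowly. Without overlap between groups, Combination was above TMZ in 1 member, Apln (3.81% of all genes), and below it in 3, Mfsd2a, Slc16a1 and Tie1 (4.7%). It was above Anti-PD-1 in 2, Cdh5 and Vcam1 (4.87%), and below it in 2, Slc7a5 and Robo4 (5.67%). TMZ was above Anti-PD-1 in 5, Tjp1, Mfsd2a, Slc16a1, Egfl7 and Erg (4.38%), and below it in 1, Nos3 (4.39%). All 7 transporters were lower in Combination than in TMZ, with differences of -0.05 to -0.22 log2, and TMZ replicate 2 was the highest of the 12 arrays in 6 of the 7. Without that array 6 of 7 were lower, Abcb1a was at 0.07, and Slco1a4 and Slc2a1 were at -0.03 and -0.02. Over all members, 29 of 38 were lower in Combination than in TMZ with that array and 21 without it. With it, 11367 of all 22180 genes were lower. Of 38, 29 were higher in TMZ than in Anti-PD-1 with that array (49.5% of all genes were) and 19 without it. Shares over all genes were not computed for these counts without it.

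The interaction, which asks whether the antibody's effect differs when TMZ is also given, was called in 0 members (0.00451% of all genes) and had an unadjusted p under 0.05 in 4, all lower (10.5%, against 8.92% of all genes, 4.65% higher and 4.27% lower). These were Slco1a4 (-0.62 ± 0.22, adjusted p = 0.422), Flt1 (-0.45 ± 0.16, 0.442), Sox17 (-0.30 ± 0.13, 0.545) and Tek (-0.44 ± 0.20, 0.551). When TMZ replicate 2 was left out there were 4 again, Slco1a4 (-0.44) and Flt1 (-0.30) lower and Aplnr (0.36) and Klf4 (0.37) higher, while Sox17 and Tek were at -0.22 and -0.31. A negative value here says that the Combination was lower than the sum of both single differences. Over the pairs of groups, the TMZ main effect (TMZ and Combination against the other arrays) and the Anti-PD-1 main effect each called 0 members (0% of all genes). At an unadjusted p under 0.05 the first had 3 members, Sox18 and Slco1a4 higher and Ly6c1 lower (7.89%, against 6.98% of all genes, 2.93% higher and 4.05% lower); without TMZ replicate 2 these were 2, Sox18 and Ly6c1. The second had 0 (against 8.98%, with 4.23% higher and 4.74% lower). The F test over the 4 groups called 0 members (0.00451% of all genes), and 3 had an unadjusted p under 0.05, Slco1a4, Tek and Flt1 (7.89%, against 10.1%).

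**Figure D4:**
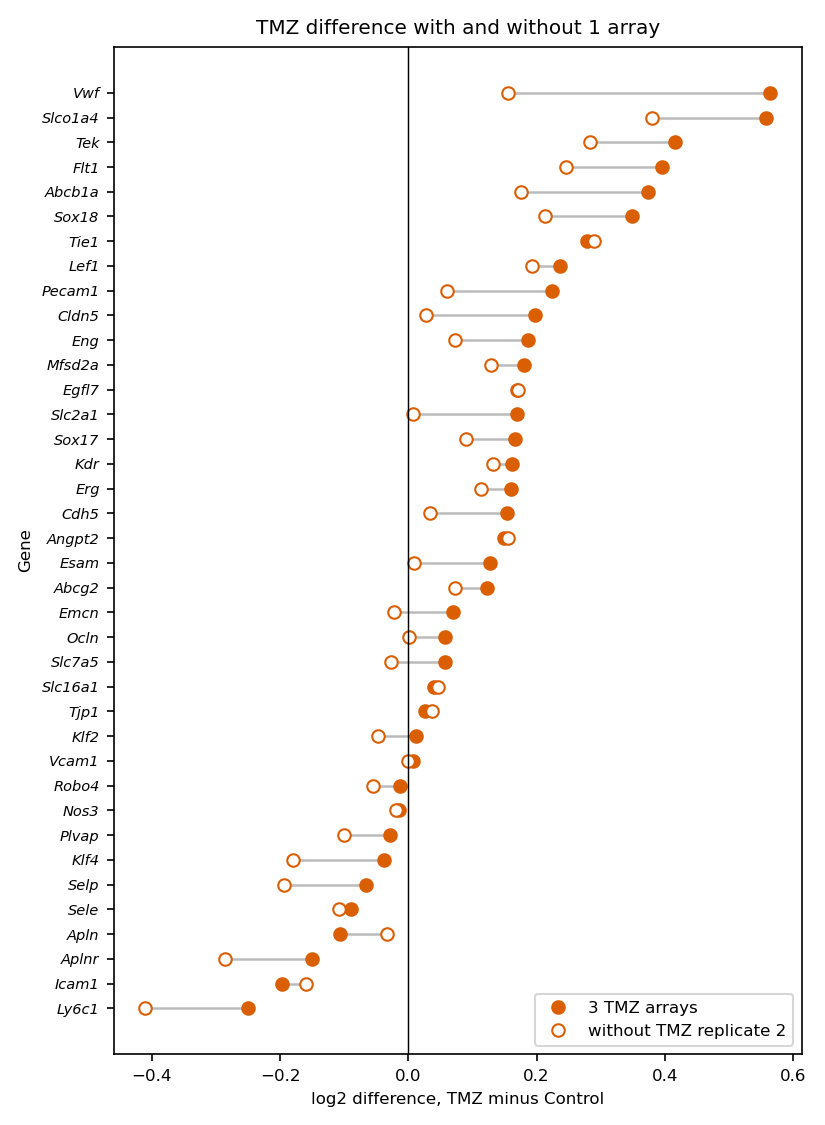
Log2 difference between TMZ and Control (x axis) for the 38 genes (y axis) with 3 TMZ arrays (filled) and without TMZ replicate 2 (open). The median moves from 0.14 to 0.04, and Vwf from 0.56 to 0.16, while Slco1a4, Tie1, Tek and Flt1 are furthest to the right without that array.

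Other vascular genes were read beside the members. Values after TMZ are followed by those without TMZ replicate 2 where they differ in sign or by over 1.5 times. Of 27 further endothelial genes 19 were higher after TMZ, 14 after Anti-PD-1 and 16 after Combination, with 0 called and medians of 0.06 (0.04 without that array), 0.01 and 0.03. Ptprb, the phosphatase that restrains TIE2 and VE-cadherin signalling, came nearest, at 0.43 ± 0.10 (adjusted p = 0.142), 0.25 ± 0.10 (0.304) and 0.35 ± 0.10 (0.223). Podxl, a luminal sialomucin, was at 0.45 ± 0.13 after TMZ (adjusted p = 0.24; 0.26 without that array), F11r, the junction protein JAM-A, at -0.36 ± 0.14 after Anti-PD-1 (0.292) and Sox7, a SOX factor, at -0.23 ± 0.07 after Combination (0.282). Of 17 Wnt and beta-catenin genes 11 (8 without that array), 6 and 9 were higher and 0 were called. Reck, a partner of the receptor for the Wnt7 ligands, was at 0.16, 0.18 and 0.15 (SE 0.07), and Wnt7a, one of those ligands, was at -0.19 ± 0.09 after Anti-PD-1 and -0.16 ± 0.09 after Combination. Of 22 VEGF, angiopoietin, Notch and tip cell genes 14, 12 and 10 were higher and 0 were called. Vegfa, the main vessel growth signal, was at 0.21 ± 0.09, 0.07 ± 0.09 and 0.26 ± 0.09, with an adjusted p of 0.399, 0.765 and 0.317, and the first was 0.13 without TMZ replicate 2. After Anti-PD-1 the smallest p were those of Dll4, a Notch ligand of tip cells, at 0.25 ± 0.09 (adjusted p = 0.254), and Angpt1, the activating ligand of TIE2, at -0.23 ± 0.09 (0.299). Dll4 was at 0.22 ± 0.09 after Combination (0.392).

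Pericytes wrap the same vessels, and 16 of their markers were at medians of 0.15, 0.10 and 0.08, with 13, 15 and 12 higher. Atp13a5, a P-type ATPase gene found in brain pericytes, rose after TMZ (0.50 ± 0.06, adjusted p = 0.0277) and after Anti-PD-1 (0.42 ± 0.06, adjusted p = 0.0309), and was at 0.45 ± 0.06 after Combination (adjusted p = 0.0639). It was the only pericyte marker called in these comparisons, and the calls were fragile. That made 1 of 16 after TMZ and 1 of 16 after Anti-PD-1, against 0.018% and 0.0812% of all genes called higher. The list was chosen with earlier results of these data known, so its calls are no independent evidence. After TMZ and after Anti-PD-1 it stayed below 0.05 in 9 of 21 alternative settings each, with an adjusted p of up to 0.276 and 0.655. Without TMZ replicate 2 the TMZ difference was 0.47 with an adjusted p of 0.167, and without Control replicate 1 it was 0.46 (0.198). The same array left out gave 0.39 (0.132) after Anti-PD-1. Rgs5, a signalling regulator of pericytes, was at 0.34 ± 0.08, 0.34 ± 0.08 and 0.27 ± 0.08, with an adjusted p of 0.178, 0.106 and 0.257.

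Markers of other cells and states were read beside these values. Mitosis scores were 0.62 ± 0.33 (SD, n = 3) in Control and between -0.25 and -0.16 as group means in the treated groups. All 19 genes were at negative differences in each treatment. Of these, 3 were called lower after TMZ (0.0812% of all genes), 9 after Anti-PD-1 (0.212%) and 0 after Combination (0%). Neuron scores were -0.07 and -0.10 in Control replicates 1 and 2, 0.01 in Control replicate 3 and between -0.03 and 0.06 in the treated arrays. The glioma and neural progenitor score was 0.25, 0.35 and 0.03 in Control and at most 0.07 in the treated arrays. T cell markers were at medians of -0.19, -0.07 and -0.11 against Control, astrocyte markers at 0.06, -0.03 and 0.00 and oligodendrocyte markers at -0.06, 0.01 and -0.10. No neuron, astrocyte, oligodendrocyte, T cell or microglia and macrophage marker was called against Control by limma. After Anti-PD-1, 1 of 9 glioma and neural progenitor genes and 3 of 17 interferon-stimulated genes were called lower (0.212% of all genes). After TMZ and after Combination 0 genes of these lists were called. Microglia and macrophage markers at an unadjusted p under 0.05 numbered 7 of 15 after TMZ, 7 after Anti-PD-1 and 2 after Combination, all lower. Of all genes 5.78%, 6.79% and 6.18% were lower at that threshold. How far tumour or brain content entered the endothelial values was not tested. With the neuron score as a covariate 0 members were called and their medians were 0.15, 0.10 and 0.07. In that setting 0% of all genes were called in each comparison, so the count of 0 says nothing particular to the members.

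**Figure D5:**
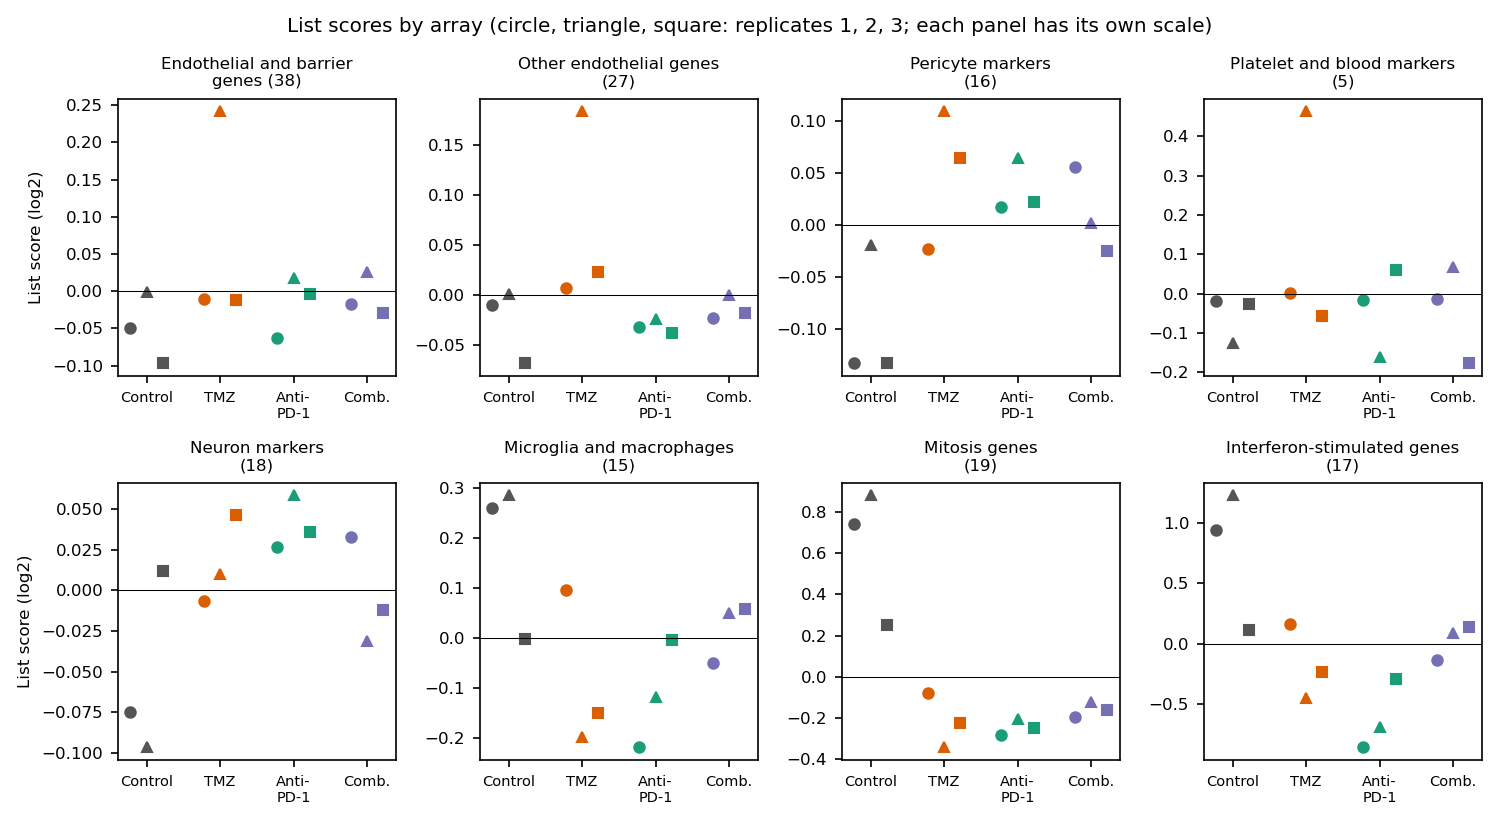
List scores (y axis, mean over a list of the log2 value minus each gene's mean) of 8 lists on each array, by group (x axis); symbols mark the replicate and each panel has its own scale. TMZ replicate 2 is at 0.24 for the endothelial and barrier genes and at 0.46 for the blood markers, while the Control arrays are highest for mitosis genes.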

How the data were processed

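Total RNA of the tumour mass was measured on 12 Affymetrix arrays. Per the labels' processing notes, the authors processed them with RMA in the Affymetrix Expression Console (version not given in the sources used here). The deposited values are log2 RMA signals of 41345 probe sets, from 1.24 to 13.14, with array medians of 5.06 to 5.12 and pairwise correlations of 0.984 to 0.991. RMA makes the arrays' distributions alike, so a shift shared by all genes cannot be seen. No detection calls were used, so whether a gene lay above background was not tested. The annotation gave 23521 probe sets exactly 1 symbol; the brightest per gene was kept, which left 22180 genes. Slc2a1 alone of the members had a second such probe set.

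The fit used limma 3.58.1 (R 4.3.3) on all 12 arrays together, as 4 group means and default empirical Bayes moderation, with 8 residual degrees of freedom. P values are two-sided, adjusted over all genes, with a threshold of 0.05. Errors after ± are standard errors unless marked SD. Alternatives were each array left out, a replicate block and other scalings, filters and probe set choices. The code was tested on simulated data. The members and lists were chosen with earlier results of these data known. All members were placed in role groups. Per-array values were given for the 4 members with the smallest p in each comparison with Control and of Combination with each agent, and for 16 members that the rule lists by name. Sequences are RefSeq windows before gene starts. Of other lists, genes past the threshold or among the 2 with the smallest p in a comparison with Control could be named, and not all of those are.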

Additional observations from a re-analysis of the deposited data

How the results depend on the processing

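Under 21 alternative settings 0 members were called after any treatment: each array left out in turn, only the compared groups fitted, the replicate block, an intensity trend, the dimmer genes left out (34 members kept), probe sets averaged, all probe sets tested, array medians subtracted, a further quantile normalisation and the neuron score as a covariate. The nearest was Slco1a4 after TMZ, with an adjusted p of 0.0536 without TMZ replicate 1. The median TMZ difference of the members ranged from 0.036 to 0.186 when 1 array was left out, lowest without TMZ replicate 2. Calls over all genes moved far more: without Control replicate 3 there were 363 after TMZ (22 with all arrays), 686 after Anti-PD-1 (65) and 282 after Combination (0), and in each comparison at least 1 other setting gave 0. For Atp13a5, whose alternatives were chosen after its call was seen, the difference kept its direction in all 21 settings.

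The labels number the replicates alike in each group. Deviations of same-numbered arrays from their group means correlated at -0.16 to 0.16, and 1 of 18 pairs was above 0.1. Of 12 arrays, 2 correlated best with their own number. Correlations taken over all genes cannot show whether a batch shared by a number moved only some genes. With the replicate block 0 members were called after TMZ (0.018% of all genes were), Anti-PD-1 (0.0902%) or Combination (0%). The median TMZ difference was then 0.14, and the limma adjusted p of Atp13a5 was 0.0527 after TMZ and 0.0526 after Anti-PD-1.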
